A study of Mus musculus with 4 samples.

Results

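Berberine at 10 microM was present in 2 of the 4 arrays of the series and absent from the other 2, and all 4 arrays enter the comparison described here. Each array with berberine has a matched array without it: berberine alone (BER) is set against untreated cells (control), and berberine with an anti-DNP IgE antibody (BER+DNP) against that antibody alone (DNP). The arrays were chosen by these treatment labels and not by any measured value. For every probe set, the short group of oligonucleotides by which an Affymetrix mouse genome array reads a transcript, the berberine difference is the mean of the 2 matched differences in log2 signal, so that a value of 1 is a 2-fold difference and a value below 0 means lower signal with berberine. The 2 pairs share no array, and their agreement is the repeat that the design offers.

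All RNA is labelled as coming from MC/9, an established mast cell line of fetal liver origin from a (B6 X A/J)F1 mouse, kept in medium with 2-mercaptoethanol, fetal bovine serum and the growth supplement Rat T-STIM. BER cells had 24 h with berberine at 10 microM and then 6 h of culture. DNP cells had anti-DNP IgE at 500 microg/ml on the same schedule, and BER+DNP cells had both agents. The control was untreated, and its culture time is not given in the labels, so time in culture and treatment cannot be told apart in BER against control, whereas BER+DNP and DNP share a schedule. No antigen step is named. Each treatment has 1 array, so the only error available is the disagreement between the 2 pairs, and it holds noise and any real dependence of the berberine difference on the antibody, which cannot be told apart. The labels do not say whether the 4 RNAs came from cultures handled in parallel.

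Berberine is an isoquinoline alkaloid from plants such as goldthread and barberry. It collects in mitochondria, slows the respiratory chain at complex I and thereby activates the energy sensor AMPK. Loss of mitochondrial function or of amino acids can engage the integrated stress response, in which the transcription factor ATF4 raises genes that make, import and charge amino acids onto tRNA. Mast cells, the labelled cell type, hold IgE at their surface by the receptor FceRI, whose crosslinking sets free stored mediators and starts cytokine synthesis.

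The labelled cell type was checked against its markers. Of 14 mast cell markers on the array, 6 passed the signal filter, a mean log2 signal over the 4 arrays of at least 3.138, the median of all probe sets that are not controls. The summed log2 signal of the 14 was 43.4 (control), 45.4 (BER), 45.2 (DNP) and 45.7 (BER+DNP). The stem cell factor receptor gene Kit, between 2.60 and 3.01, and the IgE receptor gene Fcer1a, between 2.31 and 2.58, lay below the filter on every array. Kit and Fcer1a therefore give the label no support. The brightest of the 14 was Gata2, at a mean of 5.87. Of all 14, 6 were higher and 2 lower in both pairs, but of the 6 past the filter 1 was higher and 2 lower. Without a filter, 4580 of all 18193 genes were higher in both pairs and 5084 lower. Of 8 markers of blood cells in general 5 passed, with sums of 30.6, 29.7, 29.9 and 28.9 on the same arrays, and of 8 epithelial markers 7 passed, the brightest being the keratin gene Krt17 at a mean of 9.60. The epithelial sum was 47.7 (control), 47.3 (BER), 48.3 (DNP) and 48.1 (BER+DNP), with 2 markers higher and 2 lower in both pairs. In bulk RNA, fewer cells of a type and less RNA per cell cannot be told apart.

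Some control probe sets differed with berberine too. Beta-actin read 9.42 (control), 8.85 (BER), 9.62 (DNP) and 9.04 (BER+DNP) at its 5′ probe set, which gives -0.57 and -0.59, and its 3′ probe set gave -0.31 and -0.22. The 3′ signal therefore exceeded the 5′ signal by 2.78 and 2.69 in the berberine arrays, against 2.52 and 2.33 in the arrays without it. Probe sets for the poly-A RNAs added at the start of labelling were lower in both pairs in 18 of 24 cases, with medians of -0.48 and -0.14. Those for Gapdh had medians of 0.05 and -0.01, and the spikes added at hybridisation 0.03 and 0.10. The part of RNA quality or labelling in the differences below was not tested.

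In a few genes, both arrays with berberine differed from their matched arrays by 1.5-fold or more in the same direction. Most probe sets differed by less, and across all of them the 2 pairs correlated weakly (r = 0.202). Asns, Btg1, Abhd4 and Ypel5 were among the higher genes, and Rps29, Gja1, Mycbp and Prelid1 among the lower. The brightest probe sets of Abhd4, Rps29, Gja1 and Prelid1 are of types that can share probes with other transcripts (x and s). Of 22519 probe sets past the filter, 47 (0.209%) differed at least 1.5-fold with the same sign in each pair, 13 higher (0.0577%) and 34 lower (0.151%), while 2 (0.00888%) did so in opposite directions. The split depended on the scaling, with 16 higher and 23 lower after quantile normalization and 16 and 25 after cyclic loess. In a single pair the numbers were larger, 215 higher (0.955%) and 234 lower (1.04%) without the antibody and 127 (0.564%) and 152 (0.675%) with it. At 1.3-fold in both pairs, 109 (0.484%) were higher and 202 (0.897%) lower, at 2-fold 2 (0.00888%) and 1 (0.00444%), and at any size 25.5% and 28.9%. Of the 34 lower probe sets, 28 were in the brightest quartile by signal, as were 6 of the 13 higher ones. Probe sets of the s type, which read several transcripts or genes alike, made up 9 of the 34 (26.5%) and 4.74% of all probe sets past the filter, and those of the x type 4 (11.8%) and 5.08%; of the 13 higher ones 0 and 2 were of these types. The same count for the antibody, taken within cells without and within cells with berberine, gave 6 higher and 2 lower probe sets. All 47 had both berberine arrays outside the range of both arrays without it, a separation also shown by 15.9% of all probe sets on the higher side and 18.9% on the lower side.

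An additive model of berberine and antibody (limma, p-values adjusted by Benjamini-Hochberg) called 0 probe sets (0%) at an adjusted p under 0.05, with a smallest adjusted p of 0.587. It left 1883 probe sets (8.36%) with an unadjusted p under 0.05, 725 higher (3.22%) and 1158 lower (5.14%). That split was 1062 higher and 1102 lower after quantile normalization, and 1112 and 1163 after cyclic loess. After cyclic loess limma called 2 probe sets, Rps29 lower and Btg1 higher, each at an adjusted p of 0.0425. The standard errors (SE) given below come from the limma model (n = 2 pairs). That model draws each of them toward the spread of other probe sets. Since 0 genes passed, "higher" and "lower" describe these 4 arrays.

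**Figure D1:**
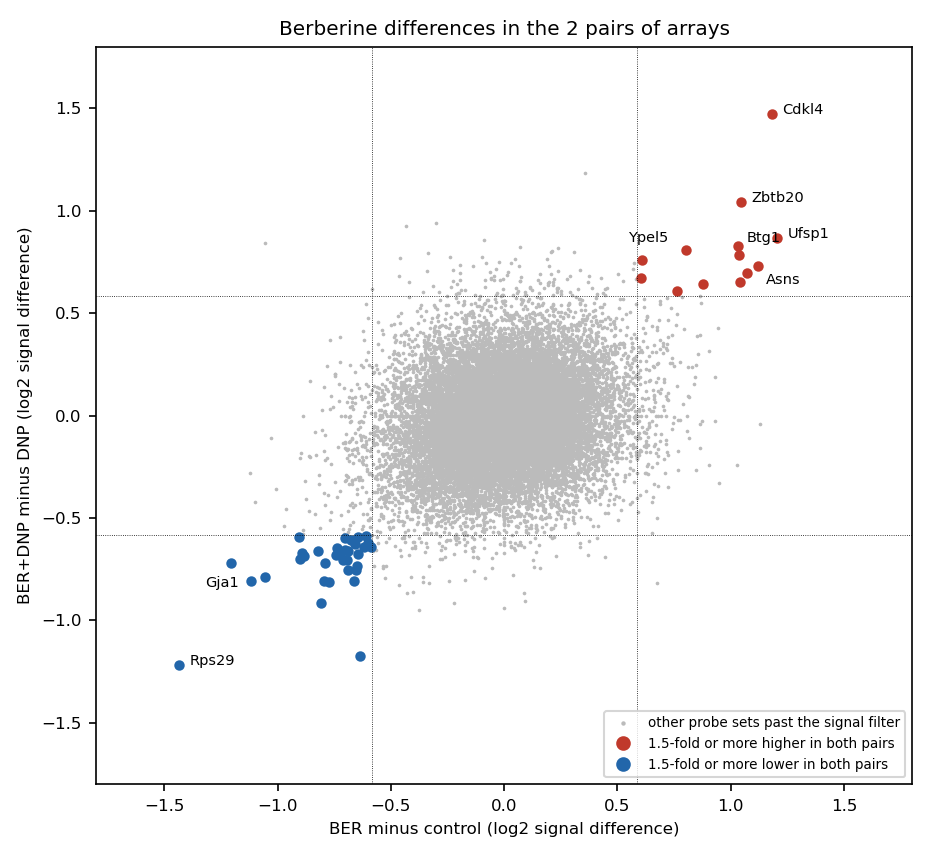
Each point is 1 of 22519 probe sets, with the log2 signal difference of BER minus control on the horizontal axis and of BER+DNP minus DNP on the vertical axis; dotted lines mark 1.5-fold. Red points are the 13 probe sets at least 1.5-fold higher in both pairs and blue points the 34 lower, while most other points (grey) lie within 1.5-fold in each pair.

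Read by the brightest probe set of each gene, 30 of 12585 genes (0.238%) passed 1.5-fold in both pairs, and 10 of them (0.0795%) were higher. After quantile normalization 11 genes were higher and 12 lower. At 1.3-fold the numbers were 61 higher (0.485%) and 122 lower (0.969%), and at 2-fold Cdkl4 higher and Rps29 lower (0.00795% each). Single pairs gave 127 (1.01%) and 124 (0.985%) without the antibody, and 64 (0.509%) and 88 (0.699%) with it. Without probe sets of the x and s types, 8 of the 30 genes no longer passed 1.5-fold in both pairs. Their mean differences were then 0.22 (Abhd4), 0.15 (Ufsp1), -0.10 (Gja1), -0.13 (Prelid1), -0.20 (Ywhaq), -0.45 (Dpysl3), -0.04 (Ammecr1l) and -0.10 (Efhd2). Rps29 has probe sets of the x type only. Of the 47 probe sets 42 carry 1 gene symbol; 30 of those are the brightest of their gene and 12 are not. The 12 are further probe sets of Gja1, Btg1 and Lurap1l, described below, 7 lower ones and 1 higher one. The 7 lower ones belong to Fam120a (-0.86), Ddx3x (-0.80), Son (-0.78), Fign (-0.70), G3bp2 (-0.68), Tpm3 (-0.65) and Creb1 (-0.64), and the brightest probe set of each of these genes did not reach 1.5-fold in both pairs. The higher one is of Zbtb20, a transcription factor gene, which had 1 at 3.85, 4.89, 3.50 and 4.54 in control, BER, DNP and BER+DNP, while its 5 others past the filter had mean differences between -0.13 and 0.10. Btg1, which restrains cell division, read 8.97 (control), 10.00 (BER), 9.24 (DNP) and 10.07 (BER+DNP) (mean difference 0.93, SE 0.08). Its second probe set past the filter read 8.03, 9.07, 8.09 and 8.87 on the same arrays (0.91, SE 0.09). Both readings separate the arrays with berberine from those without. The remaining one, below the filter, read between 2.41 and 2.63 and did not. Asns, the enzyme that makes asparagine from aspartate, read 4.20 (control), 5.32 (BER), 4.32 (DNP) and 5.05 (BER+DNP) (0.93, SE 0.13). Its other probe set, dimmer, read 3.52, 3.88, 3.01 and 4.19 (0.77, SE 0.25). It was higher with berberine in each pair, by amounts that differed more between the pairs.

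Ypel5, of the yippee-like family, read 7.34 (control), 8.15 (BER), 7.19 (DNP) and 8.0 (BER+DNP) (mean difference 0.81, SE 0.06). The 2 pairs gave almost the same difference, 0.80 and 0.81. Abhd4, a lipase of N-acyl phospholipid metabolism, read 9.04, 10.11, 9.18 and 9.87 in the same order of arrays (0.88, SE 0.12), while its second, much dimmer probe set read 4.34, 4.51, 4.30 and 4.57 (0.22, SE 0.08). Both Abhd4 readings were higher in the berberine arrays, but only the first by 1.5-fold. Fads3, of the fatty acid desaturase family, read 4.61, 5.49, 4.60 and 5.25 (0.76, SE 0.10), and its second probe set past the filter gave 0.32 and -0.06. Cpeb2, which binds the tails of mRNAs and controls their translation, gave 0.61 and 0.76. Socs7, of the suppressor of cytokine signalling family, gave 0.76 and 0.61, but its 3 other probe sets past the filter had mean differences between -0.09 and 0.13.

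The remaining higher genes were dim. Cdkl4, a kinase gene, read 3.01 in control and 3.12 in DNP, under the filter, and 4.19 in BER and 4.59 in BER+DNP (mean difference 1.33, SE 0.12). Ufsp1, a protease of the UFM1 modifier pathway, read 3.50, 4.71, 3.64 and 4.50 in control, BER, DNP and BER+DNP (1.04, SE 0.13), and N6amt1, a methyltransferase gene, 3.02, 4.06, 3.30 and 3.95 (0.85, SE 0.14). In each of these the berberine arrays stood above the others. With 32 added to the signals their mean differences were 0.39, 0.36 and 0.23, and Cdkl4 passed the filter only through its berberine arrays. Their second probe sets lay below the filter and gave 0.22 and -0.27 for Cdkl4, -0.09 and 0.38 for Ufsp1 and -0.11 and 0.04 for N6amt1.

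The lower genes numbered 20 (0.159%). Rps29, a protein of the small ribosomal subunit, read 7.61 (control), 6.18 (BER), 7.43 (DNP) and 6.21 (BER+DNP) (mean difference -1.33, SE 0.09). A second Rps29 probe set read 6.81, 6.72, 6.91 and 6.71 (-0.14, SE 0.07), so the size of the difference rests on 1 probe set; both are of the x type, which can share probes with other transcripts. Prelid1, which carries phospholipid between the mitochondrial membranes, read 8.97, 8.20, 9.19 and 8.38 (-0.79, SE 0.05), and its 2 other probe sets past the filter gave -0.23 and -0.13. All 3 Prelid1 readings were lower in both pairs, the brightest by far the most. Sat1, which acetylates polyamines for export or breakdown, read 8.33, 7.43, 8.50 and 7.90 by its single probe set past the filter (-0.75, SE 0.11).

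Among the other lower genes were 2 of mitochondrial import. Timm17a, a channel subunit of the inner membrane translocase, read 3.43 (control), 2.77 (BER), 3.80 (DNP) and 2.99 (BER+DNP) (mean difference -0.74, SE 0.09). Both of its berberine arrays lay below the filter, which it passed only through the arrays without berberine, and with 32 added to the signals its difference was -0.17. Timm8a1, a small chaperone between the mitochondrial membranes, read 6.94, 6.30, 7.07 and 6.40 (-0.66, SE 0.06), and its second probe set gave -0.19 and -0.27. Both arrays with berberine were the lowest for each of these readings. Filip1l, a filamin-interacting protein gene, gave -0.79 and -0.72, and Dpysl3, which acts on the cytoskeleton of growing neurites, -0.71 and -0.71. A dimmer Dpysl3 probe set gave -0.34 and -0.55. The transcription factor gene Tcf4 read 6.00, 5.26, 6.14 and 5.49 (-0.69, SE 0.07), and its 2 other probe sets past the filter had mean differences of -0.59 and -0.31, so that all 3 were lower in both pairs.

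Others on the lower side were Sf3b5, of the spliceosome (-0.65 and -0.73, with a second probe set at -0.54 and -0.35), Dynll2, a dynein light chain gene (-0.70 and -0.66, with a second at -0.30 and -0.09), and Efhd2, a calcium-binding protein gene (-0.62 and -0.64, with a second at 0.00 and -0.19). Pcna, the sliding clamp of DNA replication, gave -0.61 and -0.59, Tspan5, a tetraspanin gene, -0.59 and -0.64 (0.04 and 0.40 on a dimmer probe set), Lrrc51 -0.65 and -0.59, and Ammecr1l -0.66 and -0.75. The 2 dimmer Ammecr1l probe sets past the filter gave 0.27 and 0.16, and -0.02 and -0.05, so its probe sets did not share a direction either. Efnb2, the ligand ephrin-B2, read 9.85 (control), 9.25 (BER), 10.05 (DNP) and 9.43 (BER+DNP) (mean difference -0.61, SE 0.05), but its 2 other probe sets past the filter gave 0.16 and 0.38, and -0.48 and 0.22. The probe sets of Efnb2 differed in direction too. The 1.5-fold limit is 0.58 in log2: Tspan5 and Pcna lay just inside it, while the transcription factor gene Cebpb, at 0.87 and 0.58, and Wdr33, at -0.58 in both pairs, lay just outside.

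**Figure D2:**
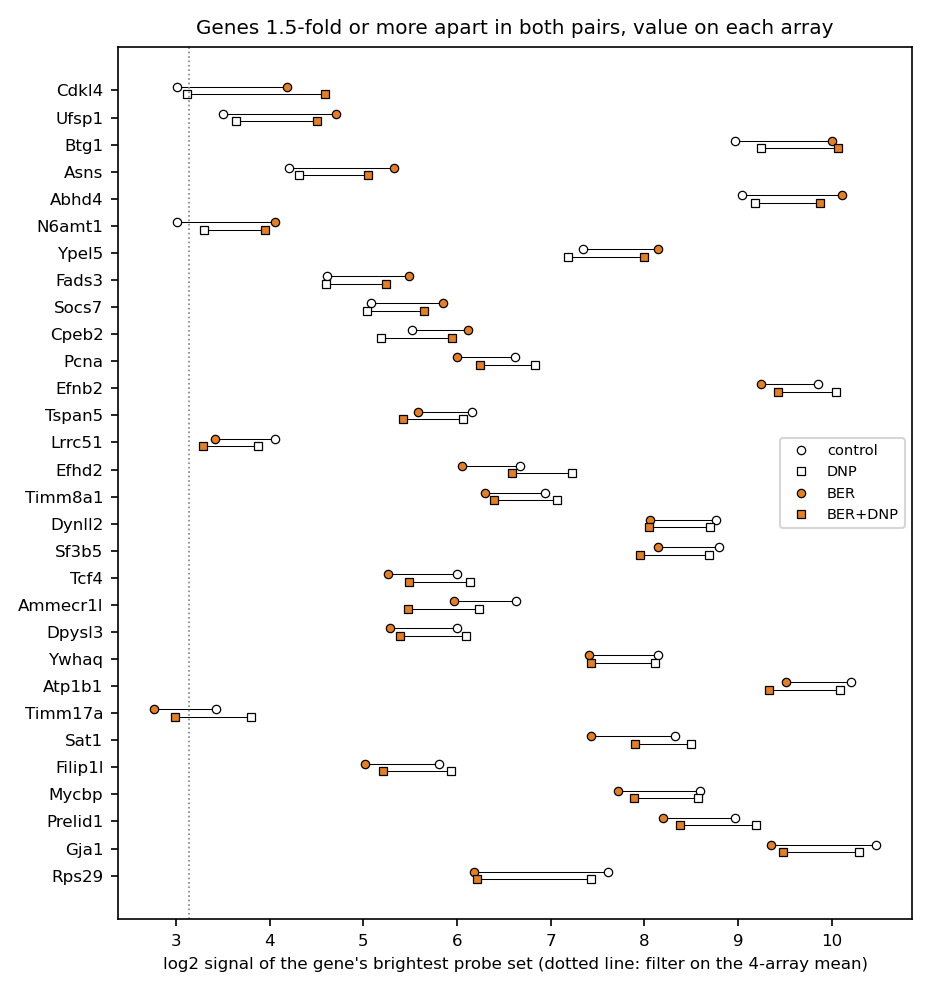
Log2 signal of the brightest probe set (horizontal axis) of the 30 genes at least 1.5-fold apart in both pairs, with 1 symbol for each array; lines join the matched arrays, circles for BER with control and squares for BER+DNP with DNP. In every gene shown the filled berberine symbols lie on 1 side of their open partners, from Rps29 at the bottom (7.61 to 6.18 and 7.43 to 6.21) to Cdkl4 at the top.

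Separate probe sets of a gene read the same RNA and are not replicate cultures, but they show whether a difference depends on 1 set of oligonucleotides. Of 4089 genes with at least 2 probe sets past the filter, 2 (0.0489%) had at least 2 of them 1.3-fold or more higher in both pairs, Btg1 and Lurap1l, and 7 (0.171%) had at least 2 of them lower by as much. Lurap1l passed the filter only through its berberine arrays, as described below. Gja1, the gap junction protein connexin 43, led the lower genes with 4 of its 5 probe sets past the filter. Its brightest read 10.47 (control), 9.36 (BER), 10.29 (DNP) and 9.48 (BER+DNP) (mean difference -0.96, SE 0.10). The next read 10.02, 9.22, 10.10 and 9.29 (-0.80, SE 0.05), and another 8.89, 7.83, 8.95 and 8.16 (-0.92, SE 0.09). In all 3 the berberine arrays were the lowest. All 3 and a dimmer one (-0.58) are of the x type. The dimmer one read 3.58, 3.02, 3.77 and 3.17. The mean of its berberine arrays lay below the filter, which it passed only through the arrays without berberine. It therefore adds nothing to the 3 brighter ones. The single Gja1 probe set past the filter that is not of the x type gave -0.17 and -0.02, at signals from 3.32 to 3.86.

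Naa15 had all 3 of its probe sets past the filter lower by 1.3-fold or more, and none of the x or s type. It is the auxiliary subunit of the NatA complex, which acetylates the N-terminus of new proteins. Its brightest probe set read 9.24 (control), 8.84 (BER), 9.29 (DNP) and 8.82 (BER+DNP) (mean difference -0.43, SE 0.05). The next read 8.0, 7.40, 7.59 and 7.18 (-0.50, SE 0.08), and the dimmest 6.13, 5.55, 6.36 and 5.62 (-0.66, SE 0.08). All 3 placed both berberine arrays below both arrays without berberine. Armc8, of the CTLH ubiquitin ligase complex, had 2 of 4 lower by this much, the brightest reading 7.95, 7.52, 7.85 and 7.36 (-0.46, SE 0.06) and the next 6.48, 6.03, 6.48 and 5.96 (-0.48, SE 0.07). Its 2 dimmer probe sets gave -0.07 and -0.10.

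Mycbp, whose product binds MYC, had both of its probe sets past the filter lower, reading 8.60, 7.72, 8.57 and 7.89 in control, BER, DNP and BER+DNP (mean difference -0.78, SE 0.08) and 7.59, 7.02, 7.74 and 7.32 (-0.50, SE 0.07). Actn1, the actin crosslinker alpha-actinin, read 10.81, 10.39, 10.90 and 10.34 (-0.49, SE 0.06) and, on a second probe set, 8.12, 7.45, 8.08 and 7.63 (-0.56, SE 0.08). The remaining Actn1 probe set gave -0.14. Each of these readings was lower in both pairs. Ywhaq, a 14-3-3 adaptor gene, had 2 of 5 probe sets past 1.3-fold, the brightest at 8.15, 7.41, 8.12 and 7.44 (-0.71, SE 0.06). Atp1b1, the beta subunit of the sodium pump, also had 2 of 5, the brightest at 10.20, 9.51, 10.09 and 9.33 (-0.72, SE 0.05), while its dimmer probe sets ranged from -0.19 to 0.08. Lurap1l, on the higher side, was dim throughout, with probe sets at 3.04, 3.51, 3.18 and 3.65 (0.47, SE 0.08) and at 2.84, 3.44, 2.80 and 3.47 (0.64, SE 0.09). The second of these lay below the filter in both arrays without berberine. For the first, the mean of those 2 arrays lay below the filter too, with DNP just above it. Both probe sets passed only through the berberine arrays, so each had to differ, and Lurap1l adds nothing to Btg1.

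**Figure D3:**
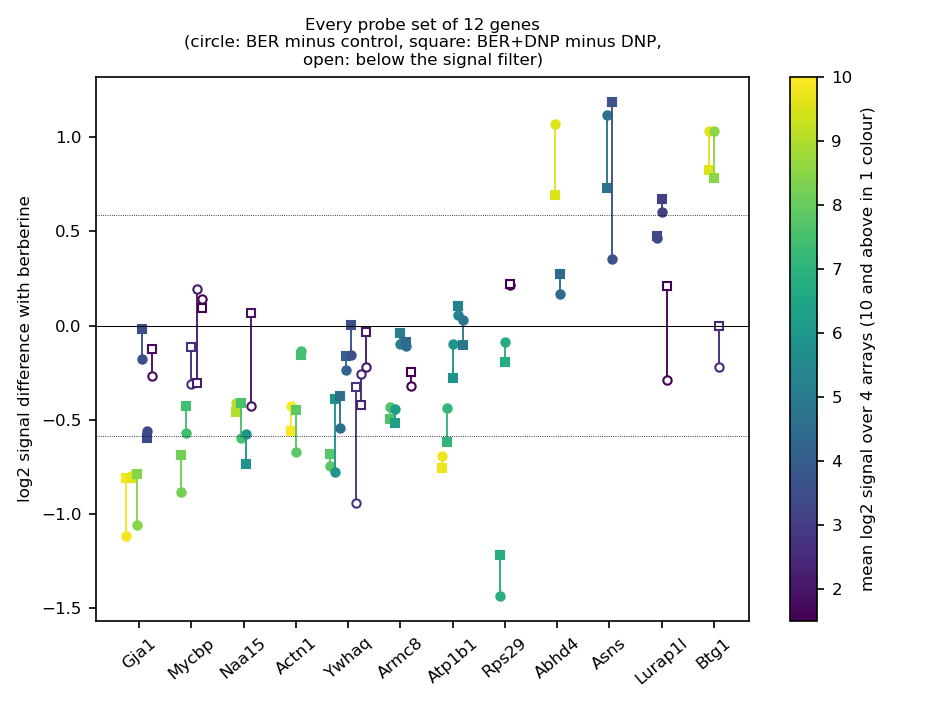
Log2 signal difference with berberine (vertical axis) for every probe set of 12 genes, with circles for BER minus control, squares for BER+DNP minus DNP, open symbols below the signal filter and colour for mean signal. The 3 filled probe sets of Naa15 and the 2 of Btg1 lie together, while those of Rps29 and Abhd4 lie apart.

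Genes of the amino acid response, a list of ATF4 targets, tended to read higher with berberine. Of 28 members past the filter, 14 were higher in both pairs and 3 lower, against 25.4% and 29.7% of all 12585 genes past the filter (3621 higher and 3482 lower genes after quantile normalization), and their median mean difference was 0.07 against -0.01 for all genes. An unadjusted limma p under 0.05 was reached by 7 of the 28, all on the higher side, as by 3.23% of all genes. In probe sets the count was 22 higher and 7 lower of 48. Asns was the 1 member past 1.5-fold in both pairs. Cebpb, a C/EBP transcription factor that acts with ATF4, read 7.03 (control), 7.90 (BER), 7.22 (DNP) and 7.81 (BER+DNP) (mean difference 0.72). Vldlr, a lipoprotein receptor, read 4.56, 5.46, 5.00 and 5.31 (0.61), but its 2 dimmer probe sets past the filter gave -0.24 and -0.08, and 0.14 and -0.16. Pck2, the mitochondrial enzyme that makes phosphoenolpyruvate, read 5.10, 5.51, 5.10 and 5.69 (0.50). In these readings of Cebpb, Vldlr and Pck2 by their brightest probe sets, both berberine arrays were the highest.

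Other members on the higher side took part in serine and glycine supply and in amino acid uptake. Phgdh, the first enzyme of serine synthesis, read 7.79, 8.08, 7.79 and 8.12 in control, BER, DNP and BER+DNP, the glutamine carrier Slc1a5 5.27, 5.60, 5.39 and 5.67, and the glycine carrier Slc6a9 6.29, 6.92, 6.32 and 6.59. Both berberine arrays were the highest for all 3, which were named after their values were seen. Dimmer probe sets did not repeat this: the second of Slc6a9, almost as bright, gave -0.08 and -0.01, that of Slc1a5 0.01 and -0.11, and that of Phgdh 0.31 and -0.02. Atf4 itself gave 0.13 and 0.20. Of members often used as readouts of the response, Ddit3, which encodes CHOP, was higher in both pairs, at 0.01 and 0.50. The others were not: Trib3 gave -0.05 and 0.05, Chac1 -0.10 and 0.26 and Nupr1 -0.30 and -0.07. The beta-actin and most of the poly-A control probe sets were lower in the same pairs. The part of RNA quality or labelling in this result was not tested.

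Cytosolic aminoacyl-tRNA synthetases, which charge tRNAs and include ATF4 targets, were higher in both pairs for 10 of 18 (55.6%) and lower for 3 (16.7%), with a median mean difference of 0.12. Among all genes past the filter 25.4% were higher and 29.7% lower, with a median of -0.01. By the median over the probe sets of each gene, 7 synthetases were higher and 4 lower with a median of 0.03. Among the 31 probe sets of the synthetases 12 were higher and 8 lower. Gars, for glycine, read 5.07 (control), 5.47 (BER), 4.83 (DNP) and 5.40 (BER+DNP) (mean difference 0.49). Sars, for serine, read 7.60, 8.01, 7.64 and 8.03 (0.40), and Cars, for cysteine, 5.65, 6.03, 5.50 and 5.91 (0.40). For these 3 readings the highest arrays were those with berberine. The second probe set of Sars gave 0.33 and 0.05, while that of Cars read 3.76, 3.62, 3.98 and 3.76 and was lower in both pairs (-0.14 and -0.22). Aars, for alanine, read 7.58, 8.29, 7.77 and 7.87, with 0.71 in the pair without the antibody and 0.09 in the pair with it. The 3 lower members were Farsb (-0.35 and -0.28), Kars (-0.26 and -0.36) and Hars (-0.17 and -0.46), for phenylalanine, lysine and histidine. The list was therefore not uniform.

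Promoter sequences are shown for 4 of these genes because they read higher in both pairs by their brightest probe set and hold the core of the amino acid response element, to which C/EBP and ATF proteins bind together. The core searched was TGATGNAA on either strand, in the 250 bases before each gene's start (RefSeq, mouse build GRCm38.p6). It occurred in 7 of the 25 listed amino acid response genes with a promoter in the table (28%), in 3 of 12 synthetase genes (25%) and in 3.91% of all 27025 genes with one. The list was made of ATF4 targets, so a raised share follows from its making and says nothing about berberine. The listed genes passed the signal filter, while all genes, here and for the motifs below, were counted whether or not they passed it. Capitals mark the match, which is a match of letters and no evidence of binding. Asns lies at chr6:7693210-7693459 on the minus strand, Vldlr at chr19:27216770-27217019, Pck2 at chr14:55540016-55540265 and Gars at chr6:55037751-55038000, all 3 on the plus strand, and each is printed 5′ to 3′ in the direction of its gene.
Asns: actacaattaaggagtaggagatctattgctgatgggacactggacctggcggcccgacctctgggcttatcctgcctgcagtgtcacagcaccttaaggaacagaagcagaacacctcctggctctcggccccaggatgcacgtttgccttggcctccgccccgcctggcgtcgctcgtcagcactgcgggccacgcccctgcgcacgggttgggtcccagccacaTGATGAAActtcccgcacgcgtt
Vldlr: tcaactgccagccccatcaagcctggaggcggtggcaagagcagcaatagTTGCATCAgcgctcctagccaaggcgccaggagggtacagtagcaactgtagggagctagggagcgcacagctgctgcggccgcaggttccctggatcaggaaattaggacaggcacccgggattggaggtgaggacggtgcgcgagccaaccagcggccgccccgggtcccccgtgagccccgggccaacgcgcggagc
Pck2: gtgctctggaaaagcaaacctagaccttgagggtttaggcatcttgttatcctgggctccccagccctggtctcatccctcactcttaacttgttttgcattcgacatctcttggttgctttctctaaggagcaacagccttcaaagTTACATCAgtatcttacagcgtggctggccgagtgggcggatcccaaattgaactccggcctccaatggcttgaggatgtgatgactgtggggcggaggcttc
Gars: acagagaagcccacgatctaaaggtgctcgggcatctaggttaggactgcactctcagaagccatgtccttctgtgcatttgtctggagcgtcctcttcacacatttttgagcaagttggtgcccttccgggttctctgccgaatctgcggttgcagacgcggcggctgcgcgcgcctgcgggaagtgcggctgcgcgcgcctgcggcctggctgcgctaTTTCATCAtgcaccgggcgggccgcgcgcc
The match of Asns reads forward, and those of Vldlr, Pck2 and Gars read on the opposite strand. The other genes with a match were Chac1, Nupr1, Fgf21, Jdp2, Aars and Tars, of which only Aars was higher in both pairs and Nupr1 was lower in both. The longer form ATTGCATCA occurred in 2 of the 25 (8%) and in 0.192% of all genes. CCAAT was present in 13 of the 25 (52%) and in 37.5% of all genes, and GATTGG, which contains its reverse complement, in 12 (48%) and 16.6%. CACGTG was found in 3 (12%) and 6.86%, TGACGTCA in 1 (4%) and 1.77%, and TGACG, which lies within it, in 10 (40%) and 19.8%.

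Proteasome subunit genes were lower with berberine almost throughout. The proteasome degrades ubiquitin-tagged proteins in a barrel of alpha and beta subunits capped by a regulatory particle. Of 30 subunit genes past the filter, 27 were lower in both pairs and 1 higher, where 29.7% of all genes were lower in both. Their median mean difference was -0.29, with -0.31 without the antibody and -0.22 with it, against -0.01 for all genes and -0.03 for the brightest quartile of genes, in which 38.1% were lower in both pairs. An unadjusted limma p under 0.05 was reached by 20 of the 30, all lower, against 5.81% of all genes on that side, and 0 passed after adjustment. None reached 1.5-fold in both pairs. Among probe sets, 35 of 43 were lower in both pairs and 3 higher.

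In the catalytic core, Psmb5, the subunit with chymotrypsin-like activity, read 6.84 (control), 6.21 (BER), 6.91 (DNP) and 6.43 (BER+DNP) (mean difference -0.55). Psmb3, a structural beta subunit, read 9.12, 8.57, 9.14 and 8.73 (-0.48), and its second probe set 8.11, 7.75, 8.15 and 7.89 (-0.31). Psma6, an alpha ring subunit, read 7.57, 6.96, 7.60 and 7.33 (-0.44). In all 4 readings the arrays with berberine were the lowest. Psmb7, with trypsin-like activity, and Psmb6, with caspase-like activity, gave -0.14 and -0.21, and -0.16 and -0.23. Psma3 was below the filter.

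In the regulatory particle, the ATPase ring gene Psmc6 read 5.94 (control), 5.48 (BER), 6.43 (DNP) and 5.61 (BER+DNP) (mean difference -0.65), the largest of the list, although its 2 other probe sets lay below the filter. Psmc5, of the same ring, read 6.56, 6.06, 6.53 and 6.22 (-0.40). The scaffold gene Psmd1 read 8.16, 7.78, 8.30 and 7.84 (-0.43). All 6 ATPase genes (Psmc1 to Psmc6) were lower in both pairs. The 3 subunits that were not lower in both were Psmd14, the deubiquitinase of the lid, at 0.08 and -0.21, Psmd8 at 0.01 and -0.10, and Psmd7 at 0.01 and 0.04. The 5′ beta-actin control was also lower (-0.57 and -0.59) in the same arrays, and its part in the result was not tested. With quantile normalization 24 of the 30 were lower in both pairs and the median was -0.21, and with each gene read by the median of its probe sets 22 were, with a median of -0.19.

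Promoters of Psmb5 and Psmc6, the members with the largest mean differences, are shown because both hold TGACNNNGC, the core of the antioxidant response element through which the NRF1 and NRF2 factors act on proteasome genes. It occurred in 4 of 24 proteasome genes with a promoter in the table (16.7%) and in 11.5% of all genes, and the same letters with a G in front, which are part of those matches, in 3 (12.5%) and 3.98%. TGATGNAA occurred in 1 (4.17%). Psmb5 lies at chr14:54617996-54618245 on the minus strand and Psmc6 at chr14:45329574-45329823 on the plus strand, over the same 250 bases and build as above.
Psmb5: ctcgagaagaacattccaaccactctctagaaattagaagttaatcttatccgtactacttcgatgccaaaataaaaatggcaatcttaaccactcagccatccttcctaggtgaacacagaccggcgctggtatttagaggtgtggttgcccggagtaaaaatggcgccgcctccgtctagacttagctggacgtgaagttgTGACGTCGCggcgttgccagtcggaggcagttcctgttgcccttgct
Psmc6: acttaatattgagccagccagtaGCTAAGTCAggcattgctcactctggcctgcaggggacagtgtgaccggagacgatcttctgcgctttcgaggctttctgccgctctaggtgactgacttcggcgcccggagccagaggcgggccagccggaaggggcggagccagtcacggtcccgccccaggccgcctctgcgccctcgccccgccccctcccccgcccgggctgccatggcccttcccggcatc
The capitals of Psmb5 read forward and overlap a TGACG, and those of Psmc6 read on the opposite strand. The other matches were in Psmb6 and Psmd12, whose differences were -0.16 and -0.23, and -0.50 and -0.07.

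**Figure D4:**
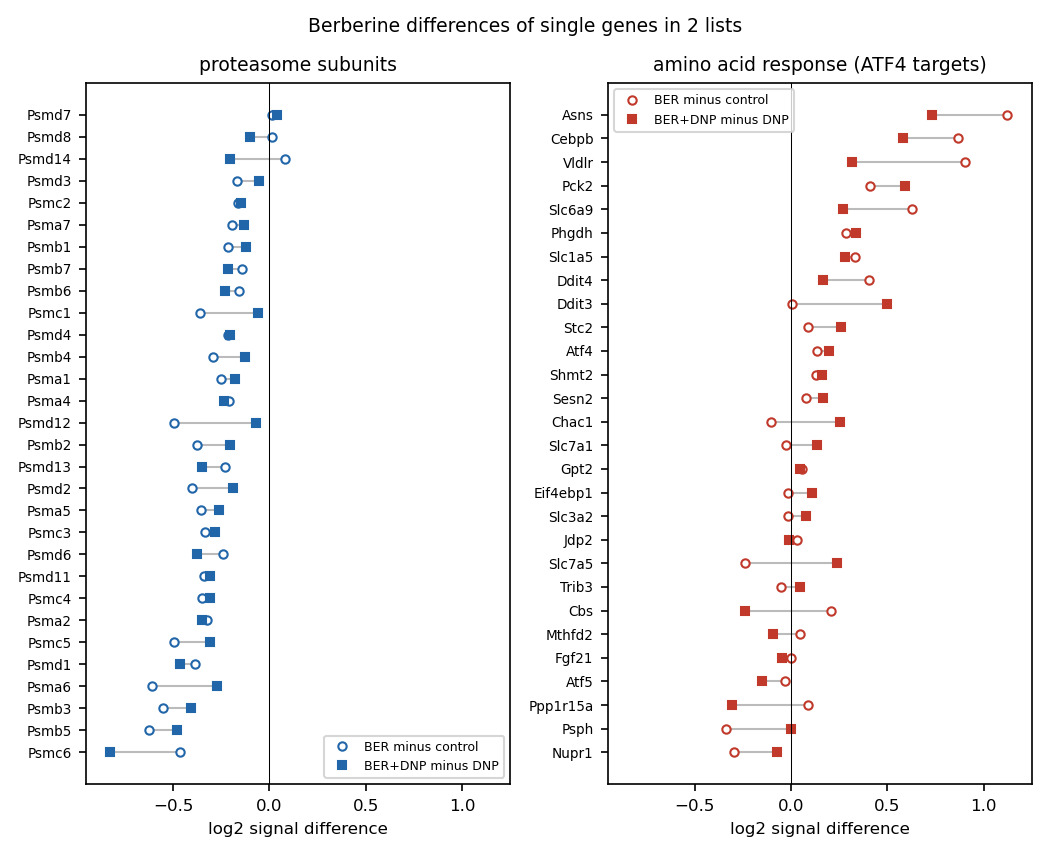
Log2 signal difference with berberine (horizontal axis) of each gene of the proteasome list (left, 30 genes) and of the amino acid response list (right, 28 genes), ordered by mean difference, with open circles for BER minus control and filled squares for BER+DNP minus DNP. On the left 27 genes have both symbols below 0, and on the right 14 have both above 0, with Asns, Cebpb and Vldlr at the top.

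Genes of mitochondrial protein import have translocases that bring nuclear-encoded proteins into the organelle. They were lower in both pairs for 13 of 17 (76.5%) and higher for 1, with a median mean difference of -0.23. Of all genes 29.7% were lower in both pairs and 25.4% higher, and of the brightest quartile of genes 38.1% and 25.2%. Beside Timm17a and Timm8a1, Timm10b, a small chaperone of the inner membrane pathway, read 6.31 (control), 5.91 (BER), 6.73 (DNP) and 5.87 (BER+DNP) (mean difference -0.63). Timm13, of the same family, read 6.62, 6.37, 6.80 and 6.19 (-0.43). The outer membrane receptor gene Tomm20 gave -0.36 and -0.32 and the channel gene Tomm40 -0.27 and -0.47. In these 4 readings the berberine arrays were the lowest, and the dimmest Tomm20 probe set gave 0.19 and -0.08. Timm50 was the 1 member higher in both, at 0.25 and 0.10, with -0.30 and 0.03 on its second probe set.

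Respiratory chain genes leaned to the lower side by less. Of 25 complex I subunits, 15 were lower in both pairs and 4 higher (median -0.08). Ndufs8 read 8.66 (control), 8.23 (BER), 8.87 (DNP) and 8.59 (BER+DNP) (mean difference -0.36). Of 35 subunits of complexes II to V, 20 were lower in both and 7 higher (median -0.08). The shares lower in both pairs, 60% for complex I and 57.1% for the others, compare with 29.7% of all genes and 38.1% of the brightest quartile. Atp5pb, subunit b of ATP synthase, read 5.74, 5.04, 5.61 and 5.32 (-0.50), and Uqcrc1, of complex III, 6.57, 6.23, 6.72 and 6.36 (-0.35). The berberine arrays were the lowest for all 3. Of the 6 probe sets of Ndufs8 past the filter 4 were lower in both pairs and 1 higher. Atp5j2, a membrane subunit of ATP synthase, went the other way, at 0.66 and 0.34, and its dimmer probe set gave -0.47 and 0.08.

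DNA replication genes were lower in both pairs for 13 of 26 (50%) and higher for 1, with a median mean difference of -0.10. Of all genes 29.7% were lower in both pairs, and of the brightest quartile 38.1%. Pcna read 6.62 (control), 6.00 (BER), 6.83 (DNP) and 6.24 (BER+DNP) (mean difference -0.60, SE 0.06). The replicative helicase gene Mcm7 read 6.94, 6.40, 7.27 and 6.88 (-0.47), and Gins2, which activates that helicase, 6.14, 5.75, 6.45 and 5.80 (-0.52). For each of these readings, both berberine arrays lay below both others. The second probe set of Gins2 was higher in both pairs, at 0.13 and 0.03, while all 4 probe sets of Mcm7 past the filter were lower. Mcm2, of the same helicase, was the 1 higher member, at 0.47 and 0.34, with signals from 3.08 to 3.55. Among 14 genes of nucleotide supply 6 (42.9%) were lower in both and 0 higher, with a median of -0.01. By the median over the probe sets of each gene the order turned, with 3 higher, 2 lower and a median of 0.07. Rrm2, the small subunit of ribonucleotide reductase, read 7.26, 6.39, 7.11 and 6.71 (-0.64), its large subunit Rrm1 6.45, 6.17, 6.63 and 6.17 (-0.38), and Umps, of pyrimidine synthesis, 5.90, 5.51, 6.29 and 5.66 (-0.51). In these 3 readings the lowest arrays were those with berberine, but a dimmer Umps probe set gave 0.01 and 0.10.

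Genes for protein folding and ribosome assembly were lower more often than higher. The shares lower in both pairs were 66.7% for cytosolic chaperones, 55.6% for endoplasmic reticulum folding and 58.3% for ribosome biogenesis. They compare with 29.7% of all genes and 38.1% of the brightest quartile of genes. Of 18 cytosolic chaperones 12 were lower in both pairs and 1 higher (median -0.16), led by the constitutive Hsp70 gene Hspa8, which read 8.20 (control), 7.70 (BER), 8.32 (DNP) and 7.86 (BER+DNP) (mean difference -0.48). Of 18 folding genes of the endoplasmic reticulum 10 were lower and 1 higher (median -0.16). Hsp90b1 gave -0.29 and -0.49 there, and Xbp1, a transcription factor of the unfolded protein response, -0.53 and -0.25. Of 24 ribosome biogenesis genes 14 were lower and 3 higher (median -0.11). Nop56, of the small nucleolar particles that modify ribosomal RNA, read 7.82, 7.07, 7.68 and 7.36 (-0.54), and Bop1, of large subunit assembly, 7.86, 7.31, 7.90 and 7.54 (-0.46). The berberine arrays were the lowest for these readings of Hspa8, Nop56 and Bop1. Their dimmer probe sets past the filter differed little, at 0.04 and -0.06, -0.08 and -0.04, and 0.07 and -0.12.

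Targets of p53 leaned higher, with 7 of 11 (63.6%) higher in both pairs, against 25.4% of all genes, and 0 lower. Their median mean difference was 0.15, although by the median over all probe sets of each gene it was -0.01. Bbc3, the cell death gene that encodes PUMA, read 4.55 (control), 5.42 (BER), 4.82 (DNP) and 5.22 (BER+DNP) (mean difference 0.63). Cdkn1a, the p53 target that encodes the cell cycle inhibitor p21, gave 0.00 and -0.09. Among 17 genes of actin and its regulator SRF, 7 (41.2%) were lower in both pairs and 4 (23.5%) higher. The shares were 29.7% and 25.4% for all genes, and 38.1% and 25.2% for the brightest quartile of genes. The list median was 0.02, with 0.08 and -0.21 in the 2 pairs. The members named next were picked by size and are all lower, so they do not stand for the list. Vcl, which encodes vinculin, read 5.82, 5.29, 5.78 and 4.99 (-0.66), Tpm1, a tropomyosin, 9.55, 9.28, 9.86 and 9.16 (-0.49), and Actb 10.37, 9.91, 10.61 and 10.19 (-0.45). Actb was lower in both pairs here as in its control probe sets.

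The lists of mast cell function did not share a direction. Cytokines and chemokines leaned higher, with 10 of 22 (45.5%) higher in both pairs and 3 (13.6%) lower (median mean difference 0.06). Those shares were near those of the amino acid response list, 50% and 10.7%. Of all genes past the filter, 25.4% were higher in both pairs and 29.7% lower. Tgfb1 and Lif were among the lower members. Tgfb1, a cytokine that restrains immune cells, read 5.58 (control), 5.25 (BER), 5.80 (DNP) and 5.06 (BER+DNP) (mean difference -0.53). Il18 read 3.74, 4.01, 3.84 and 4.14 (0.28), and Lif, of the interleukin-6 family, 4.25, 3.74, 4.07 and 3.80 (-0.39). The berberine arrays were the lowest for Tgfb1 and Lif and the highest for Il18, although a dimmer Tgfb1 probe set gave -0.10 and 0.28. Of 19 genes of FceRI signalling 6 were higher and 4 lower (median 0.04), among them the calcium channel gene Orai1 at -0.23 and -0.24 (0.20 and -0.14 on a dimmer probe set) and the adaptor gene Lat at -0.03 and 0.09. Of 11 granule and identity genes 3 were higher and 4 lower (median 0.07, with 0.09 and -0.12), with the transcription factor genes Spi1 at -0.41 in both pairs and Gata2 at -0.13 and -0.33 (0.05 and 0.07 on a dimmer probe set). The mast cell protease gene Tpsb2 gave 0.13 and 0.08.

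**Figure D5:**
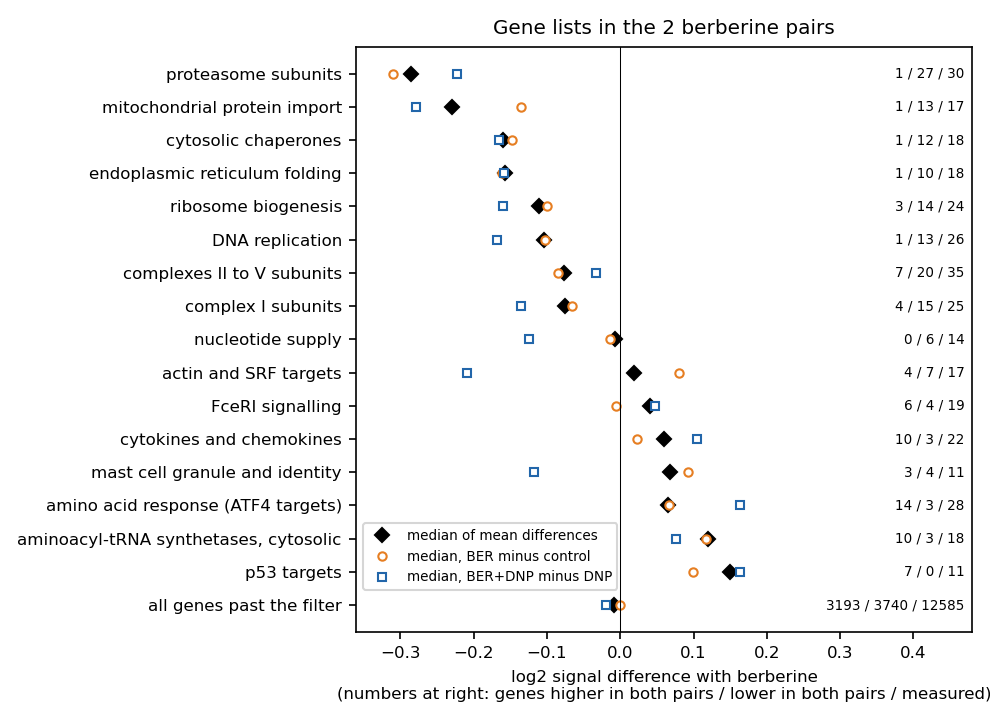
Median log2 signal difference with berberine (horizontal axis) of 16 gene lists and of all genes past the filter, with black diamonds for the mean of both pairs, orange circles for BER minus control and blue squares for BER+DNP minus DNP; the numbers at the right count members higher in both pairs, lower in both and measured. Proteasome subunits lie farthest to the left (-0.29), p53 targets farthest to the right (0.15), and all genes near 0.

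The 2 pairs did not always give the same berberine difference. The difference with the antibody exceeded that without it by at least 2-fold in 12 of 12585 genes (0.0954%) and lay below it by as much in 12 (0.0954%), and 0 genes were 1.5-fold apart in opposite directions. Across probe sets the 2 differences correlated at r = 0.202 over all 22519, and at 0.0875, 0.125, 0.156 and 0.444 from the dimmest to the brightest quartile. These values are descriptions across probe sets of the same 4 arrays, which share labelling and normalization. In the brightest quartile 36.8% of probe sets were lower in both pairs and 24.1% higher.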

How the data were processed

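RNA of 4 MC/9 samples was read on 1-colour Affymetrix arrays. The authors deposited log2 signals for 45101 probe sets, computed with Affymetrix Expression Console per the submitters' processing notes. Its version, the summary algorithm and the background correction were not given in the sources used here; the range of the values fits a log2 scale. Array medians lay between 3.13 and 3.15, so the values were used as deposited. If the software smoothed or raised low signals, differences of dim genes would be too small.

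The 64 control probe sets were set apart, and 22519 of 45037 others passed the filter. A gene was named only from probe sets with 1 symbol (34945; 932 had several and 9160 none) in a platform annotation from 2016; 34741 matched RefSeq genes and 0 symbols were updated. Of 18193 genes, read by their brightest probe set, 12585 passed. Limma 3.58.1 in R 4.3.3 fitted berberine and antibody terms with eBayes and a trend, which left 1 residual degree of freedom and a prior of 2.05, and Benjamini-Hochberg adjustment ran over all 22519. The p-values set the mean difference against a spread between the pairs. That spread draws on other probe sets as well as on the probe set's own pair disagreement, and the differences may be technical. The limma fit and the 1.5-fold count were tested on simulated data. The number of arrays limits the precision.

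Members, gene lists and settings were chosen with earlier results of these data known. Genes are named if 1.5-fold apart in both pairs (up to 15 higher and 20 lower), if several probe sets agreed at 1.3-fold, as up to 4 members of a list by size among those of 1 sign in both pairs, or among the 4 highest and 4 lowest in pair disagreement, besides cell markers; other members were named for their role after their values were seen. Alternatives changed the filter, the normalization, the signal offset (32 added), the probe set summary and the model.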

Additional observations from a re-analysis of the deposited data

Results flagged for a closer look

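The berberine difference with the antibody less that without it is given here for the 4 genes farthest apart on each side; with 1 array per treatment these differences were not tested. The berberine difference was lower with the antibody for Pla2g15, a lysosomal phospholipase (-1.28), Cntd1, a cyclin-like gene of meiosis (-1.27), B3gnt8, a glycosyltransferase (-1.17), and Wars2, which charges tryptophan tRNA in mitochondria (-1.11). B3gnt8 read 3.24 (control), 4.37 (BER), 3.86 (DNP) and 3.82 (BER+DNP), so its signal was highest with berberine alone. It was higher with the antibody for Prkcq, a protein kinase C gene of T cells and muscle (1.15), Zfas1, a small nucleolar RNA host (1.14), the dopamine receptor gene Drd2 (1.13) and Tspan8, a tetraspanin gene (1.11). Prkcq read 4.66, 4.05, 4.11 and 4.66, with control and BER+DNP alike. By its brightest probe set, each of these 8 genes had opposite signs in the 2 pairs. A second Wars2 probe set past the filter gave 0.29 and 0.04, the same sign in both. Among the single arrays below the filter were control for Pla2g15 (2.52) and Cntd1 (2.54), and DNP for Drd2 (2.95) and Zfas1 (3.04).

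Among the 47 probe sets 1.5-fold apart in both pairs, 5 carry several gene symbols or none and entered no gene comparison. All 5 were lower with berberine. The one shared by Prps1 and Prps1l3, of phosphoribosyl pyrophosphate synthesis, had a mean difference of -0.96, at 6.62 (control), 5.42 (BER), 6.46 (DNP) and 5.74 (BER+DNP). The one shared by Hnrnpa3, an RNA-binding protein gene, and Gm6793 gave -0.74, and that shared by Vps25 and Ramp2 -0.70. The 2 without a symbol gave -0.90 and -0.64. The latter read 3.66, 2.98, 3.53 and 2.92 on the same arrays. Both of its berberine arrays lay below the filter, which it passed only through the arrays without berberine.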

How the results depend on the processing

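Limma called 0 probe sets as deposited and in every other setting but cyclic loess, which called 1 higher and 1 lower; without the replicate block that pairs the arrays by antibody the count was 0, with a smallest adjusted p of 0.0614 and 1710 probe sets at an unadjusted p under 0.05. The smallest adjusted p ranged from 0.0425 to 0.696 over the alternatives. The probe sets past 1.5-fold in both pairs (13 higher, 34 lower) became 4 and 11 with 32 added to the signals, 2 and 1 at 2-fold and 109 and 202 at 1.3-fold; the higher ones were 8 with a 75th percentile filter, and the lower ones 21 without probe sets of suffix x or s. With 1 pair left out they ranged from 127 to 215 and from 152 to 234. For genes (10 and 20) the counts were 3 and 8 with 32 added, 1 and 1 at 2-fold, 61 and 122 at 1.3-fold and 5 and 9 with genes read by the median over their probe sets. The lower genes were 12 with quantile normalization and 13 without suffix x or s, and with 1 pair left out the ranges were 64 to 127 and 88 to 124. Genes agreeing over several probe sets (2 and 7) were 4 and 12 without a filter, 1 and 2 with 32 added and 1 and 1 at 1.5-fold; the higher ones were 1 with the 75th percentile filter, and the lower ones 2 with quantile normalization and 2 with cyclic loess. Pair disagreement (12 and 12) gave 4 and 2 with the 75th percentile filter and 0 and 0 with 32 added.

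Of the list medians, proteasome subunits kept their sign throughout, at -0.19 by the median over probe sets, -0.21 with quantile normalization, -0.19 with 32 added and between -0.31 and -0.22 with 1 pair left out. Mitochondrial import gave -0.12 without a filter and -0.10 with 32 added. Synthetases gave 0.029 by the median over probe sets, 0.16 with the 75th percentile filter, 0.053 with 32 added and between 0.076 and 0.12 with 1 pair left out. DNA replication gave -0.15 with the 75th percentile filter, -0.038 with 32 added and between -0.17 and -0.10 with 1 pair left out, and the amino acid response between 0.066 and 0.16. Changed in sign were p53 targets (-0.013), actin and SRF targets (-0.099), nucleotide supply (0.066), Socs7 (-0.054), Ammecr1l (0.089) and Efnb2 (0.072) by the median over probe sets, and FceRI signalling in the pair without the antibody alone (-0.0063, against 0.048 in the other). Granule and identity genes gave -0.13 with the 75th percentile filter. In the pair with the antibody alone granule and identity genes gave -0.12, actin and SRF targets -0.21 and connexins 0.015, and in the other pair ribosomal proteins -0.027. Mitosis genes, 0.04 as deposited, gave -0.030 with the 75th percentile filter and -0.00745 and -0.00629 in either pair alone. The cause was not tested. Signal near the filter limits the dim genes named.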

Other observations

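Gene groups that border on those described gave the following values. Of 40 cytosolic ribosomal protein genes past the filter, 11 were higher in both pairs and 12 lower, with a median mean difference of 0.0039, although Rps29 is among them. After quantile normalization 18 were higher and 5 lower, against 3621 and 3482 of all 12585 genes. Rps26 was the next on the lower side, at -0.45 and -0.27, and Rpl4 gave 0.55 and 0.19. Of 7 connexin genes 3 were lower in both pairs and 0 higher: Gjc1, connexin 45, read 4.17 (control), 3.07 (BER), 3.76 (DNP) and 3.34 (BER+DNP), beside Gja1. The BER value of Gjc1 lay below the filter. A second Gjc1 probe set, itself below the filter, went the other way, at 0.27 and 0.53.

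Mitosis genes were higher in both pairs for 5 of 19 and lower for 6, with Cenpf, a kinetochore protein, at -0.66 and -0.16 and the mitotic kinase gene Aurkb at -0.40 and -0.21. Cyclins and their inhibitors were lower in 8 of 14 and higher in 1 (median -0.09). Glycolysis genes were lower in 6 of 15 and higher in 2 (median -0.06), with the phosphofructokinase gene Pfkm at -0.24 and -0.45 and the lactate dehydrogenase gene Ldha at -0.29 and -0.43. NF-kB targets were lower in 5 of 11 and higher in 2 (median -0.11), with Sod2, the mitochondrial superoxide dismutase, at -0.38 and -0.29. All genes past the filter were lower in both pairs in 29.7% of cases and higher in 25.4%.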
